A study of Mus musculus with 81 samples.

Results

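Bcat2, Bckdha, Bckdhb, Dbt, Dld, Bckdk and Ppm1k encode the enzymes that commit branched chain amino acids to breakdown in mitochondria and the pair that switches the committed step off and on. These 7 of 22180 measured genes were chosen by name, and each had 1 probe set that names it alone. Their transcript levels come from whole hearts of males of the BXD family, recombinant inbred strains whose 2 founders are C57BL/6J and DBA/2J, and in those founders themselves. At 29 weeks of age the mice were fasted overnight and killed. The groups were 42 arrays labelled chow and 39 labelled high fat, with both diets for 39 strains (37 BXD strains and the 2 parents) and chow alone for 3 BXD strains. Each array held pooled RNA, from about 5 mice sharing strain and diet, so the spread between animals is not in the values. The protocol text given for every sample describes chow feeding only, which conflicts with the high fat label, and no source used here gives the make-up of the high fat food.

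Leucine, isoleucine and valine first lose their amino group to the mitochondrial aminotransferase encoded by Bcat2, a reversible step, and the resulting ketoacids are then decarboxylated by the branched chain ketoacid dehydrogenase, which makes their loss irreversible. That complex has a decarboxylase built of alpha and beta chains (Bckdha, Bckdhb), a transacylase core (Dbt) and a dihydrolipoamide dehydrogenase (Dld) that it shares with other complexes. The kinase Bckdk phosphorylates the alpha chain and turns the complex off, and the mitochondrial phosphatase Ppm1k removes the phosphate and turns it on again. The heart is one of the tissues that oxidise these ketoacids.

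Values are in rescaled units: over the 41345 probe sets of an array their mean is 8 and their SD 2. The log base is not known, so differences are in these units and not in folds, and a difference shared by most transcripts cannot be seen. The 7 probe sets were bright, with mean levels above those of 86.4% to 98.7% of genes. Cardiomyocyte markers were bright, with an average of 14.55 to 15.04 on the arrays of the 39 strains. Of 6 such markers 3 were lower on high fat, with a mean difference of -0.0408 and 27 strains lower. In bulk tissue, fewer cells of a type and less RNA per cell cannot be told apart. The 6 fibroblast markers averaged 11.004 to 11.876 on chow and 11.172 to 11.996 on high fat, were higher on high fat in 29 of 39 strains and had 4 members called higher. White or general fat markers differed by -0.168 on average (2 of 6 called lower, 30 strains lower) and macrophage markers by 0.117 (2 of 4 called higher, 27 strains higher). Strains are the replicates here, and p-values measure the spread between their pools. The strain BXD61 went opposite to most strains for the genes described here. Over all genes its diet differences still ran with those of the other strains (cosine with their mean 0.357, the fourth lowest of 39 strains, against 0.286 for BXD68 and 0.491 for BXD99).

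The first comparison asked which of the 7 genes differed between the diets within strains. Of these, 5 fell on high fat and 0 rose at an adjusted p under 0.05 (limma, strain as a block, Benjamini-Hochberg over all genes). By the same rule 21.2% of all genes were lower on high fat and 23.8% higher, or 45% in either direction. Among the 3022 genes brighter than the dimmest of the 7, 18.1% were lower and 23% higher. The largest differences were in Bckdhb, the beta chain, and Ppm1k, the activating phosphatase. Bcat2, Bckdha and Dbt fell by smaller amounts, and the shared subunit Dld and the kinase Bckdk did not pass the test. The median difference of the 7 genes was -0.182, beside 0.00526 over all genes. In 24 strains all 5 of the called genes were lower on high fat, in 9 strains 4 of them, in 4 strains 3 and in 1 strain 2. The remaining strain, BXD61, had 0 of the 5 lower.

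The sequences before the start sites of Bckdhb and Ppm1k, which fell most, and of Bckdk, which had the smallest difference, are shown because the 3 genes act on the same decarboxylase. Each runs 5′ to 3′ over the 250 bases before the annotated start in RefSeq (GRCm38.p6). Capitals mark matches to CCGCCC or its reverse complement GGGCGG and to CCACCC or its reverse complement GGGTGG.
Bckdhb (chr9:83924887-83925136, + strand): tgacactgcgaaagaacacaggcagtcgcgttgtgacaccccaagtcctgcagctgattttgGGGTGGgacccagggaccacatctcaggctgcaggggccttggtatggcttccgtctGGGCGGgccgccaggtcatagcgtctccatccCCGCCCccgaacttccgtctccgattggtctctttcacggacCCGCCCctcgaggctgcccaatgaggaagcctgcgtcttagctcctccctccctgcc
Ppm1k (chr6:57535488-57535737, - strand): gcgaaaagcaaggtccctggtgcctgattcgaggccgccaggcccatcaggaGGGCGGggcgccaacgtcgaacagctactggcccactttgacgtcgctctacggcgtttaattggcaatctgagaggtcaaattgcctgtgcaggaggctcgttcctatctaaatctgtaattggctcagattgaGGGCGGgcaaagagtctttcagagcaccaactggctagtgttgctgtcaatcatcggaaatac
Bckdk (chr7:127903823-127904072, + strand): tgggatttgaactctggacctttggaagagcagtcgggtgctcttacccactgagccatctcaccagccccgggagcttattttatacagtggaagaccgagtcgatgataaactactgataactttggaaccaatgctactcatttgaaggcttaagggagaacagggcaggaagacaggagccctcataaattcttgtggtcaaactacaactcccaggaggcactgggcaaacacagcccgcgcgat
The Bckdhb stretch held 3 matches to CCGCCC and 1 to CCACCC, the Ppm1k stretch 2 matches to CCGCCC, and the Bckdk stretch neither. Windows of 300 bases, from 250 before to 50 after a start, were searched for 6 motifs on both strands, and no 2 of the matches shown overlap. CCGCCC occurs in 35.7% of the 32851 windows of this table and CCACCC in 31.5%. TCAAGGTCA (0.423% of windows), CCGGAAG (8.86%), TGACGTCA (1.79%) and CACGTG (7.15%) were in none of the 8 windows of the 6 genes that have one. Dbt is named only. Of the other windows, 1 of 2 for Bcat2 held CCACCC once, and those of Bckdha and Dld and a second one for Bckdhb held none. The Bckdhb window was 65% G or C, beside a median of 52.7% over all windows. A match describes letters, and its absence says only that these letters are not in this window.

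Bcat2, the aminotransferase of the first step, ranged on chow from 10.27 to 11.34 with a median of 10.71. On high fat it ranged from 10.09 to 10.85 with a median of 10.49. The ranges overlapped widely, and 33 of 39 high fat arrays lay below the chow median. The difference was -0.263 ± 0.0345 (SE, n = 39 strains, 95% interval -0.333 to -0.193, adjusted p = 4.19e-08, limma), lower on high fat in 36 strains. It spanned -0.750 in BXD66 to 0.378 in BXD61.

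Among the subunits of the dehydrogenase, Bckdhb, the beta chain of the decarboxylase, went from 11.42 to 12.55 on chow (median 12.19) and from 11.02 to 12.22 on high fat (median 11.71). All but 1 of the 39 high fat arrays lay below the chow median, and 5 lay below the lowest chow array. Its difference of -0.435 ± 0.0321 (SE, 95% interval -0.500 to -0.370) was more negative than that of all but 123 of the 22180 genes. BXD61 was the 1 strain of 39 in which Bckdhb was higher on high fat, by 0.300. The deepest difference, -0.818, was in BXD63.

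Bckdha, the alpha chain that carries the regulatory phosphate, ranged from 11.17 to 11.92 on chow (median 11.61) and from 11.004 to 12.112 on high fat (median 11.387). The highest of its 78 values was a high fat array, that of BXD68, where the gene was 0.626 higher on high fat. Over the strains it fell by 0.182 ± 0.0403 (SE, 95% interval -0.264 to -0.101, adjusted p = 0.00027, limma) and was lower in 31 of 39. Although alpha and beta chains form 1 decarboxylase, their transcripts did not fall equally. Bckdhb fell further than Bckdha in 35 of 39 strains, by 0.253 ± 0.0346 (SE, two-sided permutation test flipping signs over strains, adjusted p = 2.33e-05 over 21 pairs of genes, from the smallest raw p the permutations can give, 1e-05).

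Dbt, the transacylase core, ranged from 11.41 to 12.16 on chow (median 11.89) and from 11.42 to 12.20 on high fat (median 11.82). The groups covered nearly the same range, and 0 high fat arrays lay below the lowest chow array. The difference was -0.118 ± 0.0326 (SE, 95% interval -0.184 to -0.0524, adjusted p = 0.00285, limma), with 28 of 39 strains lower. Bckdhb fell further than Dbt in 36 strains (Bckdhb minus Dbt -0.317 ± 0.0354 SE, permutation test, adjusted p = 2.33e-05). Bckdha and Dbt differed in their response by -0.0639 ± 0.0387 (SE), which did not pass (adjusted p = 0.113, permutation test).

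Fibroblast markers ran against Bckdha and Dbt from strain to strain. Over 39 strains the shift of the marker mean had r = -0.669 with the diet difference of Bckdha (rho -0.637, permutation test, adjusted p = 0.0014 over 70 relations) and r = -0.566 with that of Dbt (rho -0.516, adjusted p = 0.00187). Without the 2 strains with the most extreme shifts, BXD61 and BXD90, r was -0.635 and -0.402. With the marker mean as a covariate the differences of Bckdha and Dbt were -0.0709 (adjusted p = 0.14) and -0.0446 (adjusted p = 0.315), so neither was called. Those of Bckdhb, Ppm1k and Bcat2 were -0.382, -0.312 and -0.189, and all 3 were called. Bcat2 also ran against the fibroblast shift (r = -0.528, rho -0.473, adjusted p = 0.0098, permutation test), with -0.363 without the same 2 strains. Bckdhb, Ppm1k, Bckdk and Dld had the same sign, with r = -0.411, -0.393, -0.320 and -0.250. These were not called (adjusted p = 0.0624, 0.0750, 0.158 and 0.238, permutation tests).

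Further relations of this kind, of 7 called among the 70, were Dld with cardiomyocyte markers (r = 0.574, rho 0.531, adjusted p = 0.00187, permutation test) and Bckdha with atrial (r = -0.497, rho -0.527, adjusted p = 0.0149) and macrophage markers (r = -0.470, rho -0.433, adjusted p = 0.0277). Bcat2 ran against Slc4a1, the 1 erythroid marker measured (r = -0.506, rho -0.430, adjusted p = 0.0149). These adjusted p belong to r. For rho they were 0.0135, 0.0135, 0.0526 and 0.0526, in the order named (permutation tests). Without the 2 strains with the most extreme marker shifts, r in these 4 relations was 0.473, -0.497, -0.523 and -0.443. With atrial and brown fat marker means as covariates the same 5 genes were called.

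Dld, the dihydrolipoamide dehydrogenase shared with the pyruvate and oxoglutarate dehydrogenases, ranged from 13.02 to 13.56 on chow (median 13.34) and from 13.01 to 13.78 on high fat (median 13.31). Groups overlapped almost fully, with 22 strains lower and 16 higher. The difference was -0.0343 ± 0.0297 (SE, 95% interval -0.0943 to 0.0258, adjusted p = 0.359, limma). Bckdhb fell further than Dld in 38 of 39 strains (Bckdhb minus Dld -0.401 ± 0.0299 SE, permutation test, adjusted p = 2.33e-05).

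**Figure D1:**
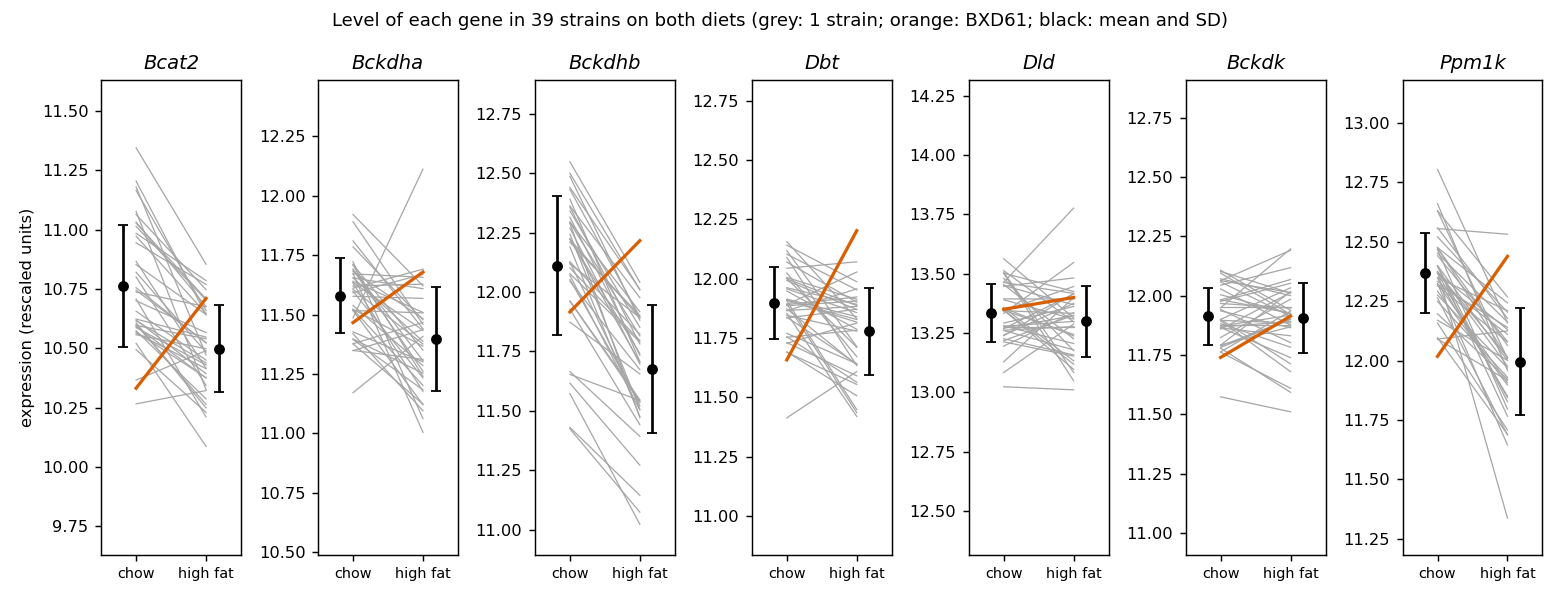
Level in rescaled units of each of the 7 genes on chow and on high fat, with a grey line for each of 39 strains, an orange line for BXD61 and black points for the mean and SD of each diet. All panels span 2 units. Lines for Bckdhb and Ppm1k run down in all but 1 and 2 strains, those for Dld and Bckdk run both ways, and BXD61 rises in every panel.

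The probe sets of the kinase and the phosphatase that act on the alpha chain differed in their response. Ppm1k, the phosphatase, ranged from 12.02 to 12.81 on chow (median 12.37) and from 11.337 to 12.532 on high fat (median 12.001). In 23 of 39 strains its high fat level was below the lowest chow level of any strain, although the ranges still overlapped. The difference was -0.375 ± 0.0389 (SE, 95% interval -0.454 to -0.297, adjusted p = 1.68e-10, limma), with 37 strains lower, and 239 of all genes had a more negative one. BXD65 had the deepest, -1.037, and BXD61 went the other way by 0.421.

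Bckdk, the kinase, ranged from 11.57 to 12.11 on chow (median 11.90) and from 11.51 to 12.20 on high fat (median 11.92). Values on both diets covered the same range, and strains split into 22 lower, 16 higher and 1 equal. Its difference was -0.00726 ± 0.0233 (SE, 95% interval -0.0544 to 0.0399, adjusted p = 0.823, limma). Set against each other, Ppm1k fell relative to Bckdk in 36 of 39 strains, by 0.368 ± 0.0424 (SE, permutation test, adjusted p = 2.33e-05). These are transcript levels, and neither phosphorylation nor activity of the complex was measured.

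Of the 21 pairs of the 7 genes, 17 differed in the size of their response. The 4 that did not pass were Bckdha with Dbt (above), Bckdhb with Ppm1k (-0.0598 ± 0.0316 SE, adjusted p = 0.0724), Dbt with Dld (-0.0842 ± 0.0422 SE, adjusted p = 0.0624) and Dld with Bckdk (-0.0270 ± 0.0342 SE, adjusted p = 0.434, all permutation tests). Bcat2 fell less than Bckdhb, by 0.172 ± 0.0327 (SE), and more than Bckdha (Bcat2 minus Bckdha -0.0805 ± 0.0345 SE, adjusted p = 0.0292, permutation test). Ranked by their differences the genes ran from Bckdhb and Ppm1k through Bcat2, then Bckdha and Dbt, to Dld and Bckdk. How many pairs of other genes would differ in this way was not computed, so the count of 17 has no share beside it.

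**Figure D2:**
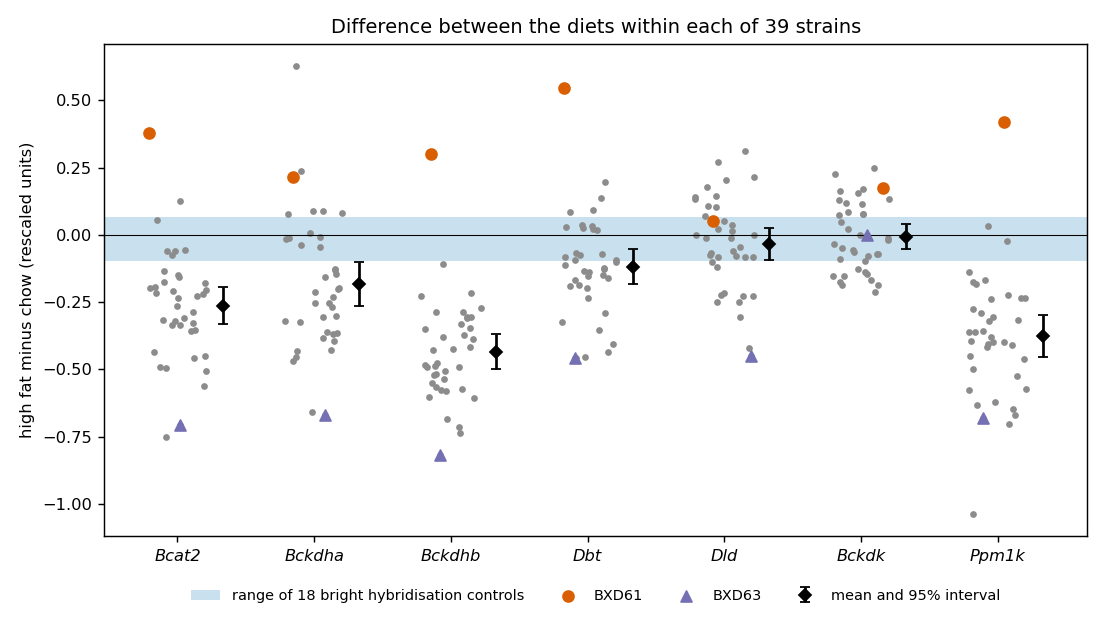
High fat minus chow in rescaled units for each of 39 strains (points), with BXD61 in orange, BXD63 as a triangle, and the mean and 95% interval of each gene in black. The blue band spans the mean differences, from -0.0955 to 0.0665, of the 18 bright control probe sets that the legend calls hybridisation controls. Intervals for Bckdhb, Ppm1k, Bcat2 and Bckdha lie below the band, that for Dbt overlaps it, and those for Dld and Bckdk include 0.

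Control probe sets were sorted by name only. Where they carry no mouse transcript, they give the size of a difference between the diet groups that these arrays show without one. Of the 18 controls brighter than the dimmest of the 7 genes, 2 were called, with a median size of 0.0240 and a largest size of 0.0955. The difference of Dbt, -0.118, exceeded this largest size by little, and those of Bckdhb and Ppm1k by more. Controls of all levels reached further. Of the 75 controls named neither spike-in nor background, these 18 included, 24 (32%) were called. Sizes in the 75 reached 0.568, with 95% of them under 0.388. Of 92 dim spike-in probe sets (mean level 5.96) 43.5% were called, the largest at 0.430 and 95% under 0.247. Some controls thus differed between the diet groups by as much as Bckdhb.

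BXD61 had the highest difference in 4 of the 7 genes and BXD63 the lowest in 4. In BXD61 all 7 genes were higher on high fat, by 0.378 for Bcat2, 0.213 for Bckdha, 0.300 for Bckdhb, 0.544 for Dbt, 0.050 for Dld, 0.174 for Bckdk and 0.421 for Ppm1k. It held the lowest chow value of Ppm1k, 12.02, and the highest high fat values of Bckdhb and Dbt, 12.22 and 12.20. BXD63 had the most negative differences of any strain in Bckdha (-0.669), Bckdhb (-0.818), Dbt (-0.458, as in BXD65) and Dld (-0.452), while its Bckdk was equal on both diets. With 1 array per strain and diet, a strain's own response and the error of its pools cannot be told apart.

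Genes on either side of the dehydrogenase were counted from lists of names, chosen with earlier results of these data known. For entry and handling of the amino acids ahead of Bcat2, 3 of 5 genes rose, 0 fell and 2 did not pass, with a median of 0.0956. Over all genes 23.8% were higher and 21.2% lower by the same rule. Slc3a2 and Slc7a5, the chains of a plasma membrane transporter for large neutral amino acids, rose by 0.146 ± 0.0263 and 0.207 ± 0.0441 (SE, adjusted p = 1.64e-05 and 0.000171, limma). Slc25a44, a mitochondrial carrier of branched chain amino acids, rose by 0.0956 ± 0.0363 (SE, adjusted p = 0.0288). Bcat1, the cytosolic aminotransferase, differed by 0.0412 ± 0.0350 (SE, adjusted p = 0.35).

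Past the dehydrogenase, 13 of 18 measured genes fell, 0 rose and 5 did not pass, with a median of -0.117. By that rule 21.2% of all genes were lower and 23.8% higher. Acadsb, which oxidises acyl-CoAs from isoleucine, and Ivd, which does so for leucine, fell by 0.335 ± 0.0289 and 0.311 ± 0.0294 (SE), each in 38 of 39 strains. Aldh6a1, the semialdehyde dehydrogenase of the valine route, fell by 0.258 ± 0.0279, and Acad8, the isobutyryl-CoA dehydrogenase, by 0.224 ± 0.0312 (SE, adjusted p = 1.36e-07). Aldh6a1 was lower in 38 strains and Acad8 in 33. With the fibroblast marker mean as a covariate 10 of the 18 were called lower, and without BXD61 14. Fibroblast, atrial and brown fat covariates left 3 of the 5 entry genes called higher.

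For complexes built on the same plan the calls lay near the shares over all genes, 21.2% lower and 23.8% higher. Of 20 genes of the pyruvate, oxoglutarate and glycine systems and their control, 4 fell, 4 rose and 12 did not pass, with a median of 0.00332. Dhtkd1, the decarboxylase for oxoadipate, fell by 0.253 ± 0.0342 and Lipt1, a lipoyltransferase that serves these complexes, by 0.143 ± 0.0345 (SE). Pdp1, the phosphatase that activates pyruvate dehydrogenase, rose by 0.113 ± 0.0271, while Pdpr, its regulatory subunit, fell by 0.0833 ± 0.0267 (SE, adjusted p = 0.00982, limma). Among 12 phosphatases of the family of Ppm1k, 3 fell and 1 rose, so that the share that fell is also near that over all genes. Ppm1e fell by 0.309 ± 0.0388, Ppm1n by 0.244 ± 0.0359 and Ppm1l by 0.106 ± 0.0289, and Pptc7, another mitochondrial member, rose by 0.113 ± 0.0359 (SE).

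Of 15 transcriptional regulators linked to these or other mitochondrial genes, 6 fell, 1 rose and 8 did not pass. The shares over all genes were 21.2% lower and 23.8% higher. Esrrg and Esrrb, estrogen-related receptors, fell by 0.150 ± 0.0257 and 0.185 ± 0.0409 (SE). Mlxipl, a carbohydrate-responsive factor, fell by 0.0986 ± 0.0296, and Ppara, a fatty acid receptor, rose by 0.178 ± 0.0390 (SE, adjusted p = 0.000235, limma). Klf15, a regulator of branched chain amino acid breakdown in heart, was singled out after its values were seen and differed by -0.0603 ± 0.0516 (SE, adjusted p = 0.354). With the fibroblast marker mean as a covariate 2 of the 15 were called lower and 1 higher. In that fit 3807 of all 22180 genes were called lower and 4309 higher.

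The second question was how far the 7 genes varied between strains whatever the diet. The 2 arrays of a strain came from different animals on different diets, so their likeness, the intraclass correlation after removing the diet means, measures what a strain repeats. Bckdhb, Bcat2 and Bckdk varied between strains at an adjusted p under 0.05 (limma's F test over all genes). That is 3 of 7, beside 14.8% of all genes and 29.5% of the genes brighter than the dimmest of the 7.

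Bckdhb had an intraclass correlation of 0.757 (adjusted p = 1.97e-07), above that of 98.7% of genes, and chow and high fat levels of the strains correlated with r = 0.76. BXD55, BXD98 and BXD65 were lowest on both diets, at 11.42, 11.43 and 11.57 on chow and, in that order, 11.07, 11.14 and 11.02 on high fat. BXD66 and BXD71 had the highest strain means, at 12.55 and 12.50 on chow, and at 12.04 and 12.01 on the other diet. Strain means, each diet centred, spanned 1.046 units, while the SE of a difference between 2 strains was 0.142. Of the 5 lowest strains on chow 4 were among the 5 lowest on high fat. Only 1 of the 38 steps between neighbours in this order exceeded the SE, so most adjacent strains are not separated.

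Bcat2 had an intraclass correlation of 0.542 (adjusted p = 0.00189). BXD71 was highest on both diets, at 11.34 and 10.85, and the lowest strain means were those of BXD90 (10.27 and 10.32), BXD97 (10.52 and 10.09) and BXD81 (10.49 and 10.23). Bckdk had a like value of 0.545 (adjusted p = 0.0121) over a narrower range of strain means, 0.585 units. BXD51 was lowest on both diets, at 11.57 and 11.51, and without it the call for Bckdk was lost (adjusted p = 0.0845). Leaving out any other single strain kept it. With atrial and brown fat marker means as covariates the intraclass correlations of Bcat2, Bckdk and Bckdhb were 0.403, 0.544 and 0.715. All were still called (adjusted p = 0.0201, 0.0210 and 1.16e-06, limma's F test). Atrial markers averaged 9.05 to 13.61 on chow arrays and 9.01 to 13.81 on high fat arrays. Bcat2 had r = -0.339 with them on chow and -0.439 on high fat.

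For Dbt, Ppm1k, Dld and Bckdha the intraclass correlations were 0.292, 0.242, 0.150 and 0.112 (adjusted p = 0.140, 0.171, 0.403 and 0.379, limma). Without BXD61 the strain test called Dbt (adjusted p = 0.0355) and Ppm1k (adjusted p = 0.0445). Bckdha and Dld were called in none of the 39 fits that left out 1 strain, and at most 1 of the 5 lowest strains was shared between diets for either. Over all 39 strains Ppm1k had a large diet difference and no strain call, and Bckdk the reverse. Each strain result turned on 1 strain. In the fits that left out 1 strain, the intraclass correlation reached 0.392 for Ppm1k and fell to 0.435 for Bckdk.

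**Figure D3:**
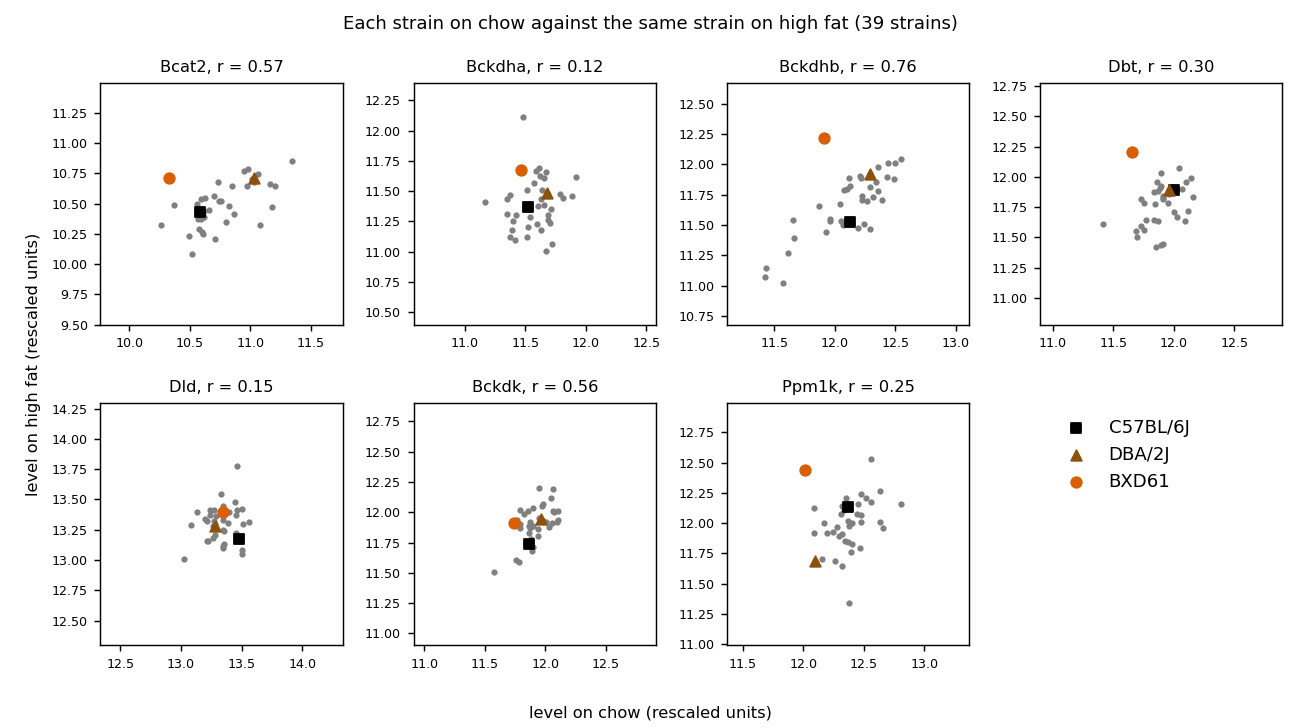
Level of each gene in each of 39 strains on chow (horizontal) and high fat (vertical), in rescaled units, with C57BL/6J, DBA/2J and BXD61 marked. Points for Bckdhb, Bcat2 and Bckdk lie along a slope (r = 0.76, 0.57 and 0.56), those for Bckdha and Dld form a cloud (r = 0.12 and 0.15), and BXD61 lies at the upper edge for Bckdhb, Dbt and Ppm1k.

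Between the parents 0 of the 7 genes were called by limma, beside 2.36% of all genes, and 2 of the 7 had an unadjusted p under 0.05 (Bcat2 and Ppm1k). DBA/2J minus C57BL/6J was 0.359 ± 0.152 for Bcat2 (SE, adjusted p = 0.274), with 11.03 against 10.59 on chow and 10.71 against 10.43 on high fat. For Ppm1k it was -0.357 ± 0.172 (adjusted p = 0.362) and for Bckdhb 0.283 ± 0.142 (adjusted p = 0.394, limma). In these 3 genes the sign was the same on both diets. Dbt was nearly equal in the parents (-0.0160 ± 0.144 SE), and 28 of 37 BXD strains had a mean below both and 7 above both. That gap is smaller than its SE, so this count cannot show that strains exceed the parents. Strain variation of Dbt was not called (adjusted p = 0.140, limma's F test). For Bckdhb 12 lay below both parents and 6 above both. The contrast rests on 2 arrays per parent, which limits what it can detect.

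Relations among the genes were taken over strain means of both diets, each diet centred. Of 21 pairs 6 correlated at an adjusted p under 0.05, all positively (permutation tests, two-sided, n = 39). Dbt was in 3 of them, with Bckdhb (r = 0.582, rho = 0.611, adjusted p = 0.00147 and 0.00105), Bckdha (r = 0.578, rho = 0.589, adjusted p = 0.00147 and 0.00147) and Bckdk (r = 0.407, rho = 0.299, adjusted p = 0.0398 and 0.117). The other three were Bckdha with Bckdk (r = 0.456, rho = 0.388), Bcat2 with Dld (r = 0.411, rho = 0.453) and Bckdha with Bckdhb (r = 0.395, rho = 0.403). For rho their adjusted p was 0.0616, 0.0304 and 0.0609 (permutation tests). Pairs were also read without the 2 strains farthest from the median of 1 gene, the one named first in the opening list. Strains extreme in the other gene alone stayed in. Dbt then kept r = 0.554 with Bckdhb and 0.533 with Bckdha, and Bckdha kept 0.466 with Bckdk. The other 3 pairs fell to between 0.280 and 0.348 and were no longer called. Of these, Bckdha with Bckdhb kept most of its size, at 0.348 (unadjusted permutation p = 0.034). How many pairs of other genes would pass was not computed. As a scale, 7 of all genes had a higher r with Bckdhb than Dbt did. For Bckdha, 690 genes had a higher r with it than Bckdhb did.

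Both genes of a pair were read on the same arrays, so an error of 1 array is shared by both. When 1 gene was read on chow and the other on high fat, 0 of 21 pairs were called, and 2 had an unadjusted p under 0.05. Bckdhb with Dbt then had r = 0.361 (permutation p = 0.00337, adjusted p = 0.0708), Bcat2 with Dld 0.237 (p = 0.0470, adjusted p = 0.494) and Bckdha with Dbt 0.178 (adjusted p = 0.495). Kinase and phosphatase, Bckdk and Ppm1k, had r = -0.137 over strain means (rho -0.216, adjusted p = 0.530, permutation test).

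Within 1 diet, 8 of 21 pairs were called on chow, with all 6 of those above, and 8 on high fat, with 3 of them. On high fat Ppm1k correlated with Bckdha (r = 0.601, rho 0.506, adjusted p = 0.00063, permutation test), Dbt (r = 0.526, rho 0.448, adjusted p = 0.00427) and Bckdhb (r = 0.470, rho 0.370, adjusted p = 0.0108). Without the 2 strains farthest from the median of Bckdha, Dbt or Bckdhb, these values were 0.456, 0.497 and 0.350. Strains extreme in Ppm1k alone stayed in. Without BXD61 the values were 0.576, 0.460 and 0.407. On chow the same pairs had r = -0.0117, 0.129 and 0.182 and were not called. Whether the relations differ between the diets was not tested.

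Diet differences were related in 14 of 21 pairs by Pearson's r, all positively. Fewer passed by rho at an adjusted p under 0.05 (permutation tests). These were Bckdhb with Ppm1k and Dld, Bckdha with Bcat2, Bckdhb and Dbt, and Dbt with Bckdk. The share of called pairs among all genes was not computed. Of all genes, 8 had a higher r with Bckdhb than Ppm1k did. For Bckdha, 1067 genes had a higher r with it than Dld did. Bckdhb with Ppm1k had r = 0.619 (rho = 0.462, adjusted p = 0.00158 and 0.0175), Bcat2 with Bckdha 0.587 (rho = 0.567), Bckdha with Bckdhb 0.566 (rho = 0.577) and Bckdhb with Dld 0.505 (rho = 0.553, permutation tests, n = 39). Without BXD61 5 of the 14 remained called. Without the 2 strains farthest from the median of the first-listed gene of a pair, 5 did. In that reading Bckdhb with Ppm1k had r = 0.454, Bcat2 with Bckdha 0.581, Bckdha with Bckdhb 0.510 and Bckdhb with Dld 0.536. BXD65, with the deepest difference of Ppm1k, stayed in for Bckdhb with Ppm1k. Bckdhb with Dbt went from 0.376 to 0.0598 without BXD61, so that relation rested on it. After removal of the fibroblast marker shift 3 pairs were called. These were Bckdhb with Ppm1k (r = 0.545), Bckdhb with Dld (0.456) and Bckdha with Bckdhb (0.429). Bcat2 with Bckdha then had r = 0.370 and was not called (adjusted p = 0.0874, permutation test). Both differences of a pair were read on the same 2 arrays, so an error of 1 array is shared by both. Differences cannot be read on separate arrays here, so this was not tested. On these arrays the differences of Dld and Bckdhb went together although the mean difference of Dld did not pass. Their strain means had r = -0.0695.

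**Figure D4:**
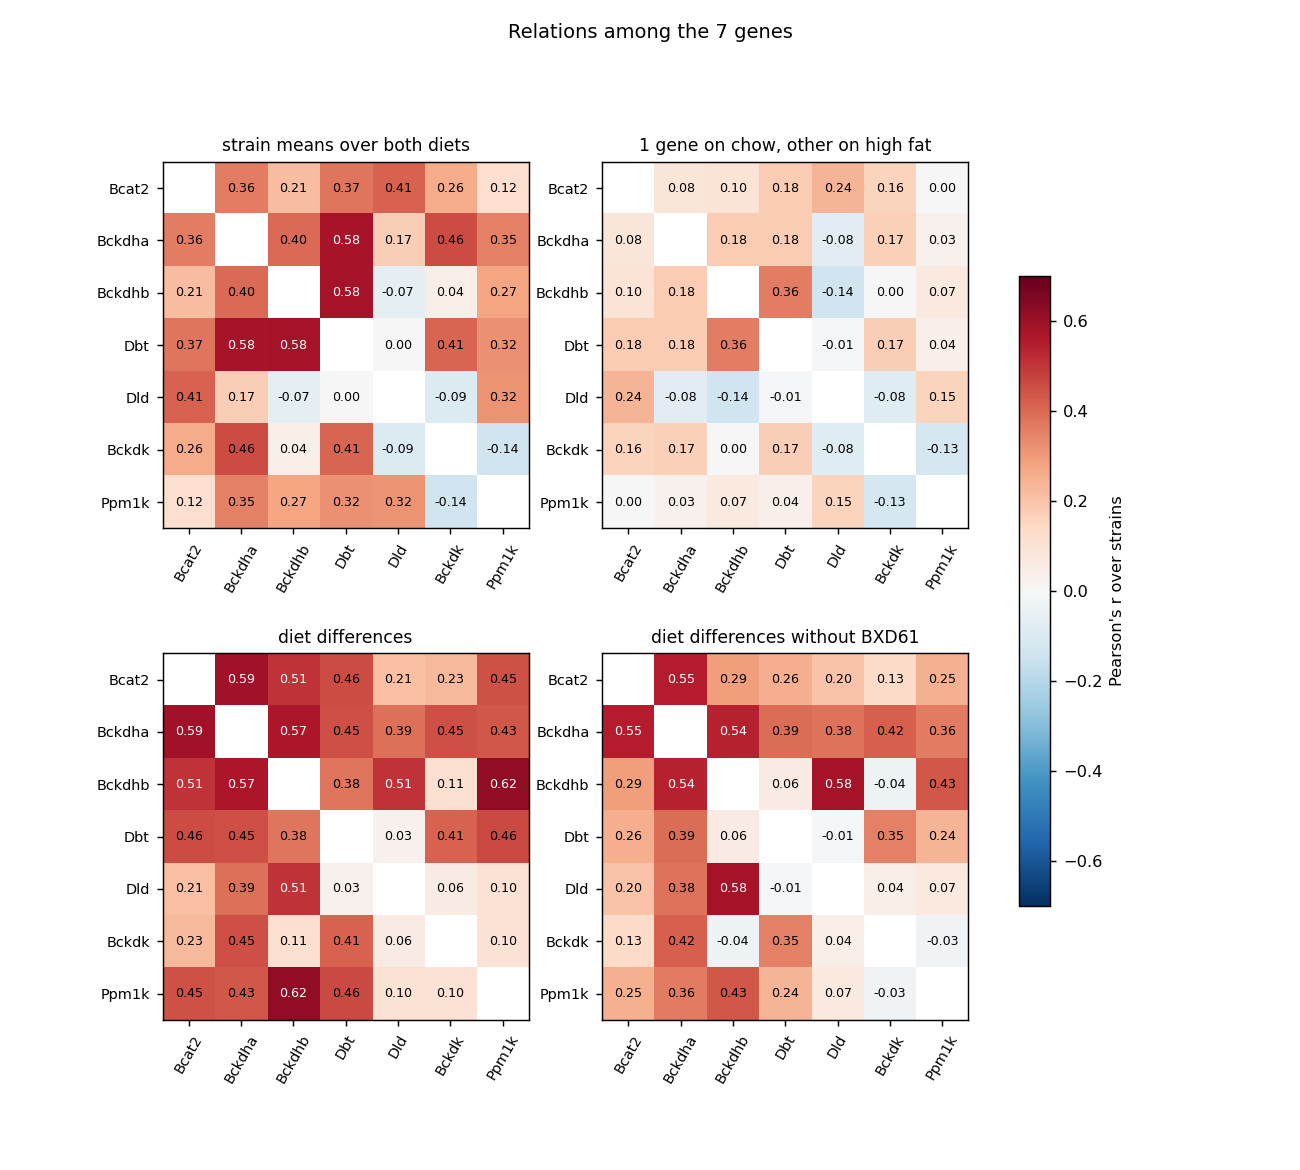
Pearson's r over strains for each pair of the 7 genes, from blue (negative) to red (positive), for strain means, for 1 gene on chow with the other on high fat, for diet differences, and for diet differences without BXD61. Each square holds its r. The largest r is 0.58 in the strain means and 0.36 across diets, and Bckdhb with Dbt fades from 0.38 to 0.06 when BXD61 is left out.

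The genes most like each of the 7 over 39 strain means, of all 22180, were named by Pearson's r as a description. For Bcat2 they were Kcnj14 (0.767), Lrrc4b (0.653) and Ush1c (0.652), and the most unlike was Zfp975 (-0.738). All 4 lie on the chromosome of Bcat2, and across diets their r was 0.6501, 0.5097, 0.5184 and -0.577. Of its 20 most like genes 5 shared that chromosome, which holds 8.85% of genes. For Bckdhb the most like were Arih2 (0.635, the same chromosome), Tm2d2 (0.619) and Csgalnact1 (0.608), with 0.412, 0.458 and 0.499 across diets. The most unlike was Epha8 (-0.621, and -0.416 across diets).

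Sgca, a dystrophin-complex protein, and Fbxo31 were among the most like genes of both Dbt (0.766 and 0.707) and Bckdha (0.671 and 0.716), and across diets these 4 values were 0.304, 0.365, 0.121 and 0.235. The third for Dbt was Mccc2 (0.685), a subunit of the carboxylase of the leucine route, and the third for Bckdha Tmem161a (0.708). Their values across diets were 0.313 and 0.246. Dld went with Ndufs4 (0.762), a subunit of respiratory complex I, Sucla2 (0.753), a subunit of succinyl-CoA synthetase, and Slc25a4 (0.752), the heart ADP/ATP carrier, at 0.204, 0.157 and 0.212 across diets. Ppm1k went with Tcp11l2 (0.715), Aldh6a1 (0.657), of the valine route above, and Eif4a2 (0.635), at 0.245, 0.263 and 0.331 across diets. Bckdk went with Mrpl28 (0.719), Rnf144b (0.682) and Slc46a3 (0.653), at 0.335, 0.368 and 0.432 across diets. Genes most unlike were Papola for Bckdha (-0.683) and Bckdk (-0.678), Lrp2 for Dbt (-0.661), Mpp1 for Dld (-0.758) and Nmrk2 for Ppm1k (-0.719). Across diets these values shrank to -0.144, -0.349, -0.426, -0.170 and -0.467, in the order named.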

How the data were processed

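RNA of 81 heart pools was measured on Affymetrix arrays. For each probe set the authors deposited a score that behaves like a log value, and no source used here states its base. Per the submitters' processing notes the authors used Affymetrix Expression Console. Of 41345 probe sets 23521 carry 1 gene symbol in the platform's table, and the brightest per gene was kept, with no filter on level.

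Diet was tested on the 78 arrays of 39 strains in R 4.3.3 with limma 3.58.1 (strain as a block, Benjamini-Hochberg over 22180 genes), and strain and parents in the same fit. The pairing comes from the strain labels: a strain's 2 arrays deviated together with a median r of 0.248, over 0.1 in 37 of 39 strains. The labels and files name no batch. Relations and unequal responses used 100000 permutations or sign flips. The fits were tested on simulated data. Alternatives covered the strain block, scaling, variance model, array weights (statmod 1.5.0), dim genes, probe sets, strains and marker covariates.

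All 7 genes are described. Of each gene list up to 4 genes with the smallest adjusted p are named, and for each of the 7 the 3 most like genes and the 1 most unlike, leaving out predicted genes, receptors of smell and small RNAs. Genes and lists were chosen with earlier results of these data known. The leaving out of BXD61, the fibroblast covariate and the control probe sets were chosen after the data were seen. RefSeq (GRCm38.p6) gave names, chromosomes and the sequences before start sites. Listed genes with no named probe set were not analysed here.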

Additional observations from a re-analysis of the deposited data

How the results depend on the processing

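The 5 calls kept their direction and their side of the threshold under every alternative strain block, scaling, variance model, weighting and strain set. Probe set choice could not test these calls, because each of the genes had 1 probe set and so kept the same values. The calls also held with atrial and brown fat covariates, and in all 39 fits that left out 1 strain. Over those fits the diet difference was -0.280 to -0.250 for Bcat2, -0.204 to -0.169 for Bckdha, -0.454 to -0.425 for Bckdhb, -0.136 to -0.109 for Dbt, -0.0434 to -0.0233 for Dld, -0.0140 to -0.00182 for Bckdk and -0.396 to -0.358 for Ppm1k. Under the fibroblast covariate, chosen after the data were seen, Bckdha (-0.0709, adjusted p = 0.14) and Dbt (-0.0446, adjusted p = 0.315) were no longer called, and Bckdk turned to 0.0197 (adjusted p = 0.602), called under neither; the cause was not tested. Testing the genes above the median level alone gave 2106 lower and 2614 higher calls, fewer because fewer genes were tested. No other alternative moved these counts beyond 1.5 times, the fit with no replicate block (4240 lower and 4834 higher) included. Scaling moved the median over all genes by under 0.01 units. Called relations between strain means numbered 6, and 8 on chow alone and 8 on high fat alone, but 0 across diets, 3 without the 2 farthest strains, 2 after quantile normalization and 2 after removal of fibroblast markers. Called relations between diet differences numbered 14 by Pearson's r, but 5 without the 2 farthest strains, 5 without BXD61 and 3 after removal of fibroblast markers. Dbt fell further than Dld after quantile normalization (-0.0955, adjusted p = 0.0298) and in BXD strains alone (-0.0920, adjusted p = 0.0497). Single arrays per strain and diet, the unknown scale and the diet label that the protocol text contradicts limit these results.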

Other observations

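BXD60, BXD79 and BXD92a had a chow array alone and entered none of the paired tests. Their chow levels of Bckdhb were 11.87, 12.40 and 11.67, inside the range of the 39 paired strains. Ppm1k stood at 12.50, 12.52 and 12.39 and Bckdk at 11.85, 11.97 and 11.93, all above the chow median of the paired strains for Ppm1k and on both sides of it for Bckdk. Bcat2 stood at 10.57, 10.47 and 11.08, Bckdha at 11.38, 11.52 and 11.62, Dbt at 11.996, 11.654 and 11.726 and Dld at 13.33, 13.24 and 13.42. None of these 21 values fell outside the chow range of the paired strains.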
